A study of Mus musculus with 6 samples.

Results

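Transcripts of 7 GABA-A receptor subunit genes were measured in hippocampi of mice that received baicalin or saline under stress. The genes are Gabra2, Gabra3, Gabra4 and Gabra5 (4 alpha subunits), Gabrb1 and Gabrb2 (2 beta subunits) and Gabrg1 (1 gamma subunit), chosen by name from 32201 genes in the deposited table. All 7 passed the filter of a mean of at least 1 FPKM (fragments scaled to transcript length and to the number mapped), as did 13153 genes in all. The first group, 3 libraries, came from male C57BL/6N mice aged 8 weeks that received baicalin at 20 mg/kg. The second group, also 3 libraries, came from male C57BL/6N mice aged 8 weeks that received saline. Mice of both groups had gone through chronic unpredictable mild stress, in which mild stressors vary in kind, among them restraint, cage tilt and altered lighting. The comparison asks how baicalin, a flavone glucuronide of Scutellaria root that the study's title calls an antidepressant, relates to transcript levels under stress. Unstressed mice are not analysed here, so no value shows what stress itself did. Whether libraries stem from separate animals is not said in the labels, and p-values thus reflect only the spread among these libraries, which may be technical.

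GABA-A receptors are pentameric chloride channels opened by GABA, the main inhibitory transmitter of the adult brain. GABA binds between an alpha and a beta subunit, and classical benzodiazepines bind between an alpha and a gamma subunit, so the subunit mix sets both kinetics and pharmacology. In the rodent hippocampus alpha5 receptors lie largely outside synapses on pyramidal cells, alpha2 is enriched at the axon initial segment, and alpha4 pairs with delta subunits in dentate granule cells.

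Library totals ranged from 61303274 to 64983755 counts with baicalin and from 65989141 to 67957752 with saline. Counts of the 7 genes lay between 744 and 19453 per library. Markers of hippocampal cells were present, with a summed level of 669 to 826 CPM (counts scaled to library size) with baicalin and 848 to 877 CPM with saline for 8 CA1 pyramidal genes. For 8 dentate granule genes it was 511 to 530 CPM with baicalin and 340 to 531 CPM with saline. CPM values here are scaled by TMM, a correction for differences in library composition. In whole tissue, fewer cells of a type and less RNA per cell cannot be told apart.

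Of the 7 genes, 4 share a cluster on chromosome 5 of the mm10 genome, and the others lie on chromosomes 7, 11 and X. In the cluster, Gabrg1 (ENSMUSG00000001260) runs from 70751047 to 70842617 on the minus strand. Gabra2 (ENSMUSG00000000560) follows at 70957597 to 71095849, also on the minus strand. Gabra4 (ENSMUSG00000029211) lies at 71569749 to 71658308 on the minus strand. Gabrb1 (ENSMUSG00000029212) lies at 71658113 to 72149037 on the plus strand. The cluster spans 1397991 bp. Gabra4 and Gabrb1 are head to head: their spans share 196 bp and, in GENCODE mouse release 21, 46 exonic bases, which is 0.756% of the exonic length of Gabra4. Gabra5 (ENSMUSG00000055078) lies on chromosome 7 at 57407672 to 57510009, minus strand, and 148 of its 2974 exonic bases are also exonic in Gm9962 on the opposite strand. Gm9962 averaged 1.01 FPKM, against 72.6 FPKM for Gabra5. Gabrb2 (ENSMUSG00000007653) lies on chromosome 11 at 42419757 to 42629028, plus strand, and Gabra3 (ENSMUSG00000031343) on chromosome X at 72432681 to 72656848, minus strand. The sources used here do not give whether strand was used in counting.

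The 250 bases before the RefSeq start (GRCm38.p6) are shown for the most abundant member, the member with the largest difference between groups and the least abundant member, because their base composition differs. They read 5′ to 3′ on the gene's strand. Capitals mark matches, on either strand, to TATAAA or GCGNGGGCG, the core of a TATA box and of an EGR factor motif. For Gabra5 the window is chr7:57510060-57510309, minus strand. For Gabrb2 it is chr11:42420190-42420439, plus strand, before the most upstream of 3 RefSeq starts and inside the deposited gene span. For Gabrg1 it is chr5:70842618-70842867, minus strand.
Gabra5: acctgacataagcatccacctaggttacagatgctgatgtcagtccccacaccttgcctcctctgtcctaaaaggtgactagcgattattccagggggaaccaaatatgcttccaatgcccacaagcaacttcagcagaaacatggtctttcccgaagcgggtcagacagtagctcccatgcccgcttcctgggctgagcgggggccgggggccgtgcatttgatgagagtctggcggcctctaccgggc
Gabrb2: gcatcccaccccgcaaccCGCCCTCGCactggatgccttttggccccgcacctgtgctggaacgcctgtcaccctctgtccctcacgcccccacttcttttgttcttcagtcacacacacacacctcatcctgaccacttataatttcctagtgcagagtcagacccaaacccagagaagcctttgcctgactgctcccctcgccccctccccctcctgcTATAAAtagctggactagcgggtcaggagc
Gabrg1: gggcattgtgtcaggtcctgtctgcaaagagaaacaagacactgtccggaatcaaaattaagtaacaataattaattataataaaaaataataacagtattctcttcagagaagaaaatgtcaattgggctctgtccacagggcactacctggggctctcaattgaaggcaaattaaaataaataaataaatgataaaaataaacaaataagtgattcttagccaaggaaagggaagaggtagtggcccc
The GC content was 56.4% for Gabra5, 58.8% for Gabrb2 and 35.6% for Gabrg1, against a median of 52.4% over 32851 RefSeq windows of the same length. The Gabra2 window reached 70%. TATAAA was found in the windows of Gabrb2 and Gabra3 and in 12.4% of all windows. GCGNGGGCG was found in that of Gabrb2 alone among the 7 members and in 4.70% of all windows. TGACG, the core of a cyclic AMP response element, was in none of the 7 windows and in 17.8% of all windows. TTCAGCACC, a part of the REST motif, was also in none of the 7 and in 0.301% of all windows. These matches describe letters in a window and are not evidence of binding.

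Gabra5 was the most abundant of the 7 genes in every library, in FPKM, which is scaled to transcript length and so compares genes. It had 75.6, 67.5 and 71.3 FPKM with baicalin, against 52.9, 84.0 and 84.4 FPKM with saline. Its mean over 6 libraries, 72.6 FPKM, was 4.86 times that of Gabra3, the next in order, and higher than 96.1% of the genes tested. Gabra3 (13.4 to 17.4 FPKM over the 6 libraries), Gabra4 (12.7 to 15.7) and Gabra2 (10.99 to 13.5) followed, and neighbours in that order overlapped. Gabra3 was above Gabra4 in 4 of 6 libraries and Gabra4 above Gabra2 in 5 of 6. Gabrb1 came next at 8.44 to 10.4 FPKM, then Gabrb2 at 3.14 to 5.43 FPKM and Gabrg1 at 1.35 to 1.78 FPKM. These 3 were in the same order in all 6 libraries, with ranges that did not meet. The mean level of Gabra5 was 44.6 times that of Gabrg1.

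**Figure D1:**
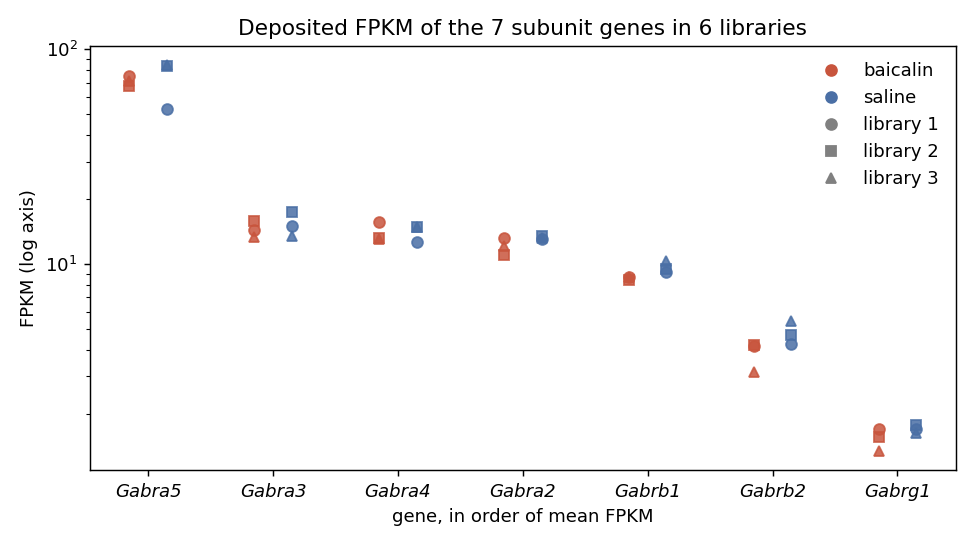
Deposited FPKM (log axis) of each gene in each library, in order of the mean over 6 libraries, with baicalin left of saline and marker shape giving the library number. Gabra5 stands above all others, and its lowest point is saline library 1 at 52.9 FPKM.

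The subunit mix had the same leading gene in both groups. Gabra5 made up 56.6, 55.4 and 57.9% of the summed FPKM of the 7 genes with baicalin, against 48.5, 57.6 and 58.8% with saline. The saline library with 48.5% was the one with the low Gabra5 value. The mean shares of Gabra5 were 56.7 ± 1.23% in baicalin libraries and 55.0 ± 5.60% in saline libraries (SD, n = 3 each; exact two-sided permutation p = 0.9). Gabrb2 took 3.04 ± 0.45% in baicalin libraries and 3.63 ± 0.36% in saline libraries (SD, n = 3 each; exact two-sided permutation p = 0.2). That was the smallest p among the 7 shares, where 3 against 3 libraries cannot give less than 0.1, and all 7 were 1 after Benjamini-Hochberg adjustment. The 7 shares are parts of 1 sum and so are not independent. The summed level was 126 ± 6.39 FPKM in baicalin libraries and 133 ± 20.7 FPKM in saline libraries (SD, n = 3 each).

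No member passed the adjusted threshold of 0.05 in edgeR's quasi-likelihood test, in which 6 of 13153 genes did (0.0456%). At an unadjusted p under 0.05 there was 1 of 7, Gabrb1, against 11.8% of all genes tested in either direction and 5.46% lower with baicalin. DESeq2 also called 0 of 7, against 1.66% of the genes it tested, with 2 of 7 at an unadjusted p under 0.05, against 11.8%. With limma-voom 0 of 7 were called, against 0.038% of genes, with 1 of 7 at an unadjusted p under 0.05, against 11.6%. All 7 log2 changes were negative, where 50.2% of all genes tested were. They ran from -0.32 to -0.01 with a median of -0.12, against a median of -0.00063 over all genes. Without saline library 2 only 4 of the 7 were negative. In Gabrb1 and Gabrb2 every baicalin library was below every saline library, an arrangement found in 9.52% of genes tested (19.4% in either direction).

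**Figure D2:**
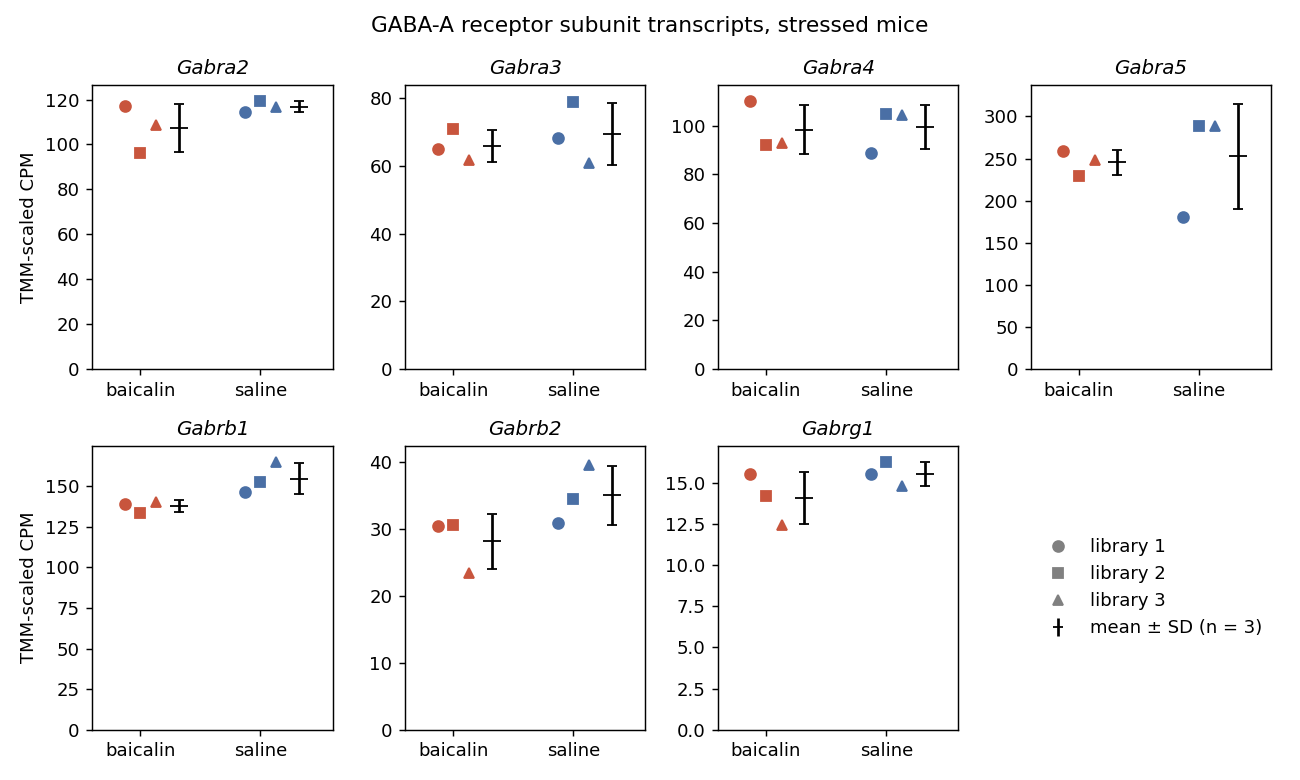
TMM-scaled CPM of each gene in each library (marker shape gives the library number), with the mean and SD of 3 libraries beside each group; baicalin is left of saline and each vertical axis starts at 0. Baicalin and saline points do not overlap in the panels of Gabrb1 and Gabrb2 and overlap in the other panels.

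The beta subunit genes had the largest log2 changes with all 6 libraries. Other members passed Gabrb1 in several alternatives. With the length trend removed these were Gabrg1, Gabra2 and Gabra3, and without baicalin library 1 Gabrg1 and Gabra2. Without baicalin library 2 it was Gabrg1, without saline library 1 Gabra5, and without saline library 3 Gabrg1, Gabra3 and Gabra2. Gabrb1, whose beta1 product gives receptors with low sensitivity to the anaesthetic etomidate, had 139, 134 and 140 CPM with baicalin, against 146, 152 and 165 CPM with saline. The baicalin libraries were close together and all below the saline ones. The log2 change was -0.17 ± 0.05 (SE), a fold of 0.89 with a 95% interval of 0.81 to 0.98 (adjusted p = 0.371 in edgeR). It was -0.07 with the trend of log ratio on gene length removed, and Gabrb1 was then no longer at an unadjusted p under 0.05. The same was so without baicalin library 2 (-0.14) and without saline library 3 (-0.12). Gabrb2, whose beta2 product is part of the most common synaptic receptor of the brain, had 30.5, 30.7 and 23.4 CPM with baicalin, against 30.9, 34.6 and 39.7 CPM with saline. The groups did not overlap, but 30.7 CPM with baicalin nearly met 30.9 CPM with saline, and baicalin library 3 and saline library 3 lay farthest apart. The log2 change was -0.32 ± 0.14 (SE), a fold of 0.80 with a 95% interval of 0.64 to 1.01 (adjusted p = 0.437 in edgeR). Of the genes tested, 10.4% had a larger change in either direction. Without baicalin library 3 it was -0.20 and without saline library 3 it was -0.22.

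Among the alpha subunit genes, Gabra2 had the largest log2 change with all 6 libraries. It had 117, 96.1 and 109 CPM with baicalin, against 115, 119 and 117 CPM with saline. The saline libraries were close together, and baicalin library 2 was the low one. The log2 change was -0.12 ± 0.07 (SE; adjusted p = 0.547 in edgeR), with -0.05 without baicalin library 2 and -0.19 without baicalin library 1. Gabra3, whose alpha3 product also forms benzodiazepine-sensitive receptors, had 65.0, 71.0 and 61.6 CPM with baicalin, against 68.2, 79.0 and 60.9 CPM with saline. The baicalin values lay inside the saline range. Its log2 change was -0.07 ± 0.11 (SE; adjusted p = 0.802 in edgeR). Leaving out saline library 2 gave 0.03 and leaving out saline library 3 gave -0.16, while omission of baicalin library 2 or 3 gave -0.13 or -0.03.

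Gabra4, whose alpha4 product gives receptors insensitive to classical benzodiazepines, had 110, 92.1 and 92.9 CPM with baicalin, against 88.9, 105 and 104 CPM with saline. The groups overlapped, with the highest value with baicalin and the lowest with saline. Its log2 change was -0.01 ± 0.10 (SE; adjusted p = 0.963 in edgeR), and between 0.02 and 0.03 without baicalin library 2 or 3 or saline library 2 or 3. It was -0.11 without baicalin library 1 and -0.09 without saline library 1. Gabrb1, its head-to-head neighbour, had groups that did not overlap, but the difference between the changes of Gabra4 and Gabrb1 was not tested. Gabra5 had 259, 230 and 248 CPM with baicalin, against 181, 288 and 288 CPM with saline. Saline library 1 stood apart at 62.6% of the mean of the other saline libraries, and all baicalin values lay between it and those. The log2 change was -0.04 ± 0.18 (SE; adjusted p = 0.940 in edgeR). Leaving out saline library 1 gave -0.23, and leaving out saline library 2 or 3 gave 0.07. Omission of baicalin library 1 or 2 gave -0.08 or 0.0072. The 95% interval for Gabra5, over all 6 libraries, ran from 0.73 to 1.31 in fold.

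Gabrg1 encodes the gamma1 subunit, which takes the gamma position in a small part of receptors. It had 15.6, 14.2 and 12.4 CPM with baicalin, against 15.5, 16.2 and 14.8 CPM with saline. Baicalin library 1 lay among the saline libraries and the other baicalin libraries below them. The log2 change was -0.14 ± 0.10 (SE; adjusted p = 0.607 in edgeR), with -0.06 without baicalin library 3 and -0.23 without baicalin library 1.

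**Figure D3:**
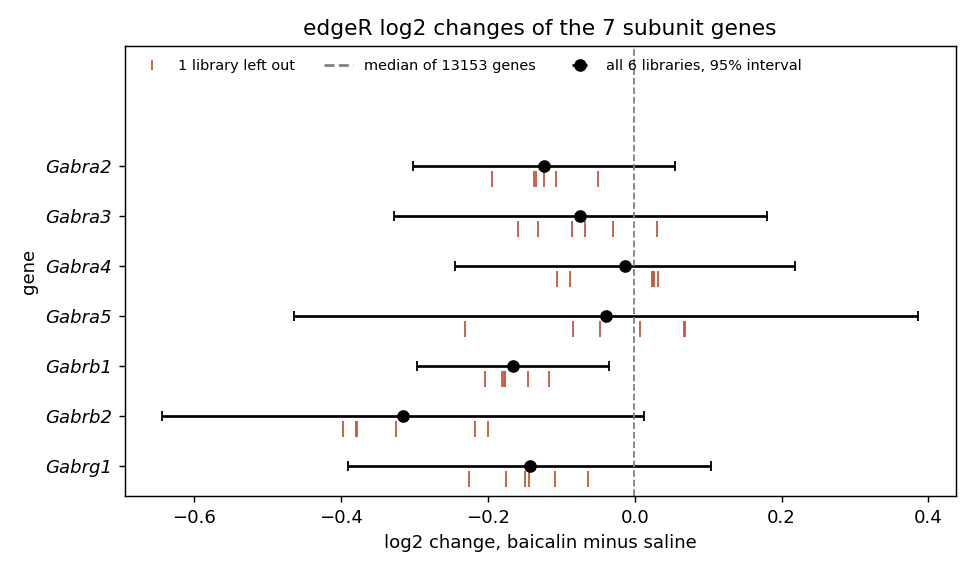
Log2 change (baicalin minus saline) of each gene with its 95% interval from edgeR, the values with 1 library left out as red ticks, and the median of all genes tested as a dashed line. Points lie between -0.32 and -0.01, and the interval, which is not adjusted for the number of genes, excludes 0 in Gabrb1 alone.

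Gene length moved with these differences. Among all genes tested, sorted into 5 bins by exonic length, the shortest bin had a median log2 change of 0.11 and the longest bin one of -0.07. Gabra2, Gabrb1 and Gabrg1 were in the longest bin and Gabra4 and Gabrb2 in the next (median -0.03). Gabra3 was in the middle bin (-0.0019) and Gabra5 in the bin of shorter genes next to it (0.03). Exonic length ran from 2974 bp for Gabra5 to 13838 bp for Gabrb1. With the length trend removed, 6 of 7 log2 changes were negative and the median of the 7 was -0.08. Gabra4 was at 0.02, Gabra5 and Gabrb1 at -0.07, Gabra3 and Gabra2 at -0.08, Gabrg1 at -0.10 and Gabrb2 at -0.28. Gabra5 (-0.04 without the correction) and Gabra3 (-0.07) thus moved down, and the other members moved up.

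Library by library, the 7 genes did not share 1 profile. The mean of their log2 CPM, each centred on its own mean, was 0.03, -0.08 and -0.14 in baicalin libraries 1, 2 and 3, against -0.07, 0.14 and 0.11 in saline libraries 1, 2 and 3. Baicalin library 1 thus lay above saline library 1. Gabra2 and Gabrb1 had the most similar profiles, with a root-mean-square difference of 0.083 on the log2 scale over 6 libraries, and Gabra3 and Gabra5 the least similar (0.27). Gabra2 was also close to Gabra4 (0.10) and Gabrg1 (0.11), and Gabra3 to Gabrg1 (0.12). The chromosome 5 cluster holds 4 of the 7 genes, and whether its genes were more alike than others was not tested. This difference is also smaller between genes that vary little. These are descriptions over 6 libraries. Among 11637 other genes, those with profiles among the closest to the members' mean were Nab1, a corepressor of EGR factors (root-mean-square difference 0.015), and Snapc3, a subunit of the complex that activates small nuclear RNA genes (0.018). Megf9, a membrane protein with EGF-like domains (0.021), and Gad2, a GABA-synthesising enzyme (0.022), were also among them. Over these other genes the median was 0.15 and the 1st percentile 0.051. None of these 4 passed the adjusted threshold in edgeR (smallest adjusted p = 0.482).

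**Figure D4:**
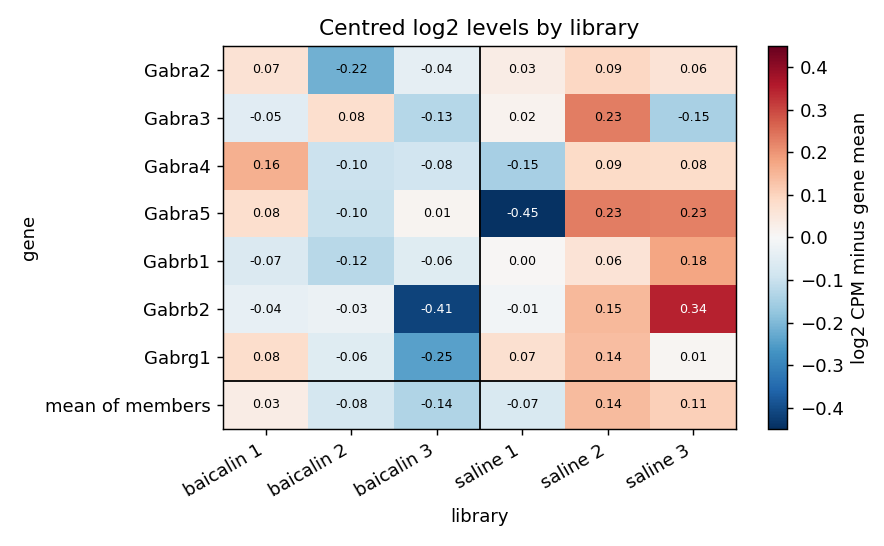
Log2 CPM minus the gene's mean, by library, for the 7 members and their mean, with baicalin libraries left of saline libraries. The strongest cells are Gabra5 in saline library 1 (-0.45), Gabrb2 in baicalin library 3 (-0.41) and Gabrb2 in saline library 3 (0.34).

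Other genes of GABA signalling were read from lists, none with a member past the adjusted threshold in edgeR. Of 12 other GABA-A and rho subunit genes, 5 passed the expression filter, all with negative log2 changes (-0.14 to -0.04; 0 at an unadjusted p under 0.05). Of 5 tested genes for the metabotropic GABA-B receptor and its partners, all 5 were negative with a median of -0.10. The receptor genes Gabbr2 and Gabbr1 had log2 changes of -0.10 ± 0.04 and -0.04 ± 0.05 (SE), and the auxiliary subunit genes Kctd16 and Kctd12 had -0.34 ± 0.17 and -0.13 ± 0.09. Of 23 genes for the inhibitory scaffold and receptor trafficking, 13 were negative and 10 positive (median -0.04). Shisa7, an auxiliary GABA-A protein, had a log2 change of -0.16 ± 0.06, the transport adaptor Trak2 -0.10 ± 0.04, and Gabarapl1, a paralog of the GABA-A receptor-associated protein, 0.12 ± 0.04.

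Of 8 genes for GABA synthesis, loading, uptake and breakdown, 5 had negative log2 changes (median -0.04). Gad2 had -0.12 ± 0.06 (SE) and Gad1, the other GABA-synthesising enzyme, 0.01 ± 0.04. The vesicular transporter gene Slc32a1 had 0.12 ± 0.08 and the astrocyte GABA transporter gene Slc6a11 -0.09 ± 0.05. Of 9 chloride transporters and their kinases, 8 were negative (median -0.07), with the neuronal chloride extruder gene Slc12a5 at -0.13 ± 0.06 and the kinase genes Oxsr1 at -0.11 ± 0.07 and Wnk1 at -0.14 ± 0.09. All 4 tested genes for neurosteroid steps and ligands of the benzodiazepine site were positive (median 0.13). They included Dbi, the diazepam-binding inhibitor, at 0.20 ± 0.11, and the transport protein genes Tspo and Star at 0.23 ± 0.26 and 0.07 ± 0.09. Median exonic length was 8481 bp in the chloride list and 2165.5 bp in the neurosteroid list, against 4097.5 bp over all genes tested. Over all genes, median log2 changes were -0.07 in the longest bin and 0.11 and 0.03 in the shortest and next shortest. The lists of GABA signalling were not corrected for length. Of the genes beside the subunit clusters, Atp10a had 0.37 ± 0.18 and Commd8 -0.04 ± 0.26.

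Markers of the cells that carry these receptors also differed between libraries. Of 8 CA1 pyramidal markers, 7 had negative log2 changes (median -0.26), and 7 of 8 dentate granule markers had positive ones (median 0.25). None passed the adjusted threshold in edgeR (smallest adjusted p = 0.366 and 0.421). The summed CA1 level was 826, 669 and 781 CPM in baicalin libraries 1, 2 and 3, against 877, 877 and 848 CPM in saline libraries 1, 2 and 3, so the groups did not overlap. Among single genes tested, 9.52% were apart in that direction and 19.4% in either direction. No such share was computed for sums. The summed dentate level was 521, 511 and 530 CPM in baicalin libraries 1, 2 and 3, against 487, 340 and 531 CPM in saline libraries 1, 2 and 3, with saline library 2 apart from the rest. Without saline library 2, which is also the library without which 4 of the 7 subunit genes were negative, 5 of 8 dentate markers were positive (median 0.05) and 8 of 8 CA1 markers negative (median -0.17). Baicalin library 2, lowest in CA1 markers, was also the lowest of 6 libraries in Gabra2. Saline library 1, low in Gabra5, was not low in CA1 markers. It was the lowest of 6 libraries in the summed level of 5 of 14 marker lists, namely those of CA2 and CA3 pyramidal cells, oligodendrocyte precursors, microglia, choroid plexus and thalamus. Saline libraries 2 and 3 were the lowest in 4 and 3 of the 14 lists, and baicalin libraries 1, 2 and 3 in 1, 1 and 0. The sum of 10 CA2 and CA3 markers was 552 to 585 CPM with baicalin, against 521 CPM in saline library 1 and 566 and 585 CPM in the other saline libraries. Of 14 tested interneuron markers, 7 were negative and 7 positive (median 0.0049), with Dlx1 at 0.39 ± 0.10, Pvalb at 0.80 ± 0.26, Lamp5 at 0.22 ± 0.08 and Sst at -0.07 ± 0.08 (SE). The summed interneuron level was 967 to 1007 CPM with baicalin and 911 to 981 CPM with saline. For 10 astrocyte markers the sum was 3630 to 3950 CPM with baicalin and 3556 to 3914 CPM with saline (4 of 10 negative). No marker of these lists was at 0 counts in all libraries. The part of cell makeup in the subunit values was not tested.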

How the data were processed

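RNA sequencing of ribosome-depleted hippocampal RNA was used, with 3 baicalin and 3 saline libraries grouped by the labels. The submitters' processing notes name mm10 and, with no roles, bcl2fastq 2.0, StringTie, HISAT2, limma and DESeq2. The deposited table gives each gene a whole-number count and an FPKM value that the authors scaled to transcript length and mapped fragments. The counts were taken as unnormalized, which their differing column totals allow but do not settle. Another 12 per-sample columns matched no label and were not used.

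The 13153 genes whose mean reached 1 FPKM were tested on counts with TMM scaling and edgeR 4.0.16 under R 4.3.3, with treatment as the only term. P-values were adjusted by Benjamini-Hochberg over all genes tested (threshold 0.05). Log2 changes are baicalin minus saline, the SE is the size of the change divided by the square root of F, and 95% intervals use the test's total degrees of freedom. Exonic lengths and overlaps came from GENCODE mouse release 21, where 89.9% of genes had the deposited coordinates, and promoter windows from RefSeq (GRCm38.p6; all 7 genes matched). The fit was tested on simulated counts.

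The members and lists were chosen with earlier results of these data known. Named genes were, by rule, all members, up to 3 genes with the smallest p and the most abundant gene of each list described, and the 5 with the closest profile, predicted genes left out; for CA1, dentate, CA2 and CA3 and astrocyte markers only sums and counts are given. Gm9962 was named for its overlap with Gabra5. A gene of the closest profiles and values of single further GABA-A subunits are not reported here. The 20 alternatives comprised other scalings, DESeq2 1.42.0, limma 3.58.1 (voom, or log2(FPKM + 1) or + 0.1), filters (none, 0.1 and 5 FPKM), robust dispersion, a length correction, a replicate block and each library left out.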

Additional observations from a re-analysis of the deposited data

How the results depend on the processing

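No subunit gene passed the adjusted threshold in any of 20 alternatives, and all 7 log2 changes were negative in 14 of them. The number of genes called over the whole table was 6, against 218 with DESeq2, 0 with a replicate block (edgeR, 1120 at an unadjusted p under 0.05) and 2 to 39 with 1 library left out. The number of negative members was 4 to 7 with 1 library left out (4 without saline library 2), and their median lay between -0.18 and -0.06. Scaling to equal FPKM sums gave a member median of -0.20 and a median of -0.08 over all genes. In that edgeR fit 3 of 7 members were at an unadjusted p under 0.05, against 1887 of 13153 genes. FPKM summed over all genes was 318131 to 339672 with baicalin and 308688 to 313255 with saline, so the groups did not overlap. Gabra4 was at 0.016 with the length trend removed. With 1 library left out, Gabra3 ranged from -0.16 to 0.030, Gabra4 from -0.11 to 0.032 and Gabra5 from -0.23 to 0.068. Gabra2, Gabrb1, Gabrb2 and Gabrg1 stayed negative in all alternatives that tested them, and a filter of at least 5 FPKM left out Gabrb2 and Gabrg1. The cause of these shifts was not tested. Whether same-numbered libraries were paired is not settled here. Their deviations correlated weakly, at 0.12, 0.08 and 0.01. Each saline library correlated best with the baicalin library of its number, and so did baicalin libraries 1 and 2 with theirs. Baicalin library 3 instead correlated best with saline library 2 (0.036). With the replicate block, Gabrb1 had -0.16 and Gabrb2 -0.32 (adjusted p = 0.576 and 0.604 in edgeR). The lowest count of a subunit gene was 744, and 3 libraries a group limit the precision.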
